A study of Mus musculus with 4 samples.

Results

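Interferon-stimulated genes were followed in a mouse B lymphoma line, CH12.F3, with and without Mbd4. The set is a list of 34 genes that type I or type II interferon induces, and its members were taken as the transcript clusters that the array's gene table pairs with a member symbol and no other. A transcript cluster is the group of probes that the array summarises into 1 value. By that rule 30 of the 34 genes were measured, each by 1 cluster, of 21789 clusters tested and 35556 on the array. Isg15, Gbp2 and Igtp have clusters that the table also pairs with a second gene, and Ifi44 is paired with none in the table used, so these 4 were not analysed here.

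RNA from 2 control samples and 2 Mbd4 KO samples was hybridised to 1 array each, and the design text calls the samples independent. The cells of all 4 samples were kept in medium with 6% serum and received, over 24 hours, IL-4 at 5 ng/ml, TGF-beta at 0.2 ng/ml and CD40 ligand as 25% of the volume, a mixture that induces switching to IgA. No interferon is named among the stimuli. Mbd4 encodes a repair enzyme, a DNA glycosylase, with a domain that binds methylated CpG sites, and its knockout is the only genetic change the labels name. The labels give neither the kind of control cell nor whether the KO samples are 1 clone or several, so p-values describe no more than the scatter among the 4 arrays, possibly technical, and an effect of the knockout and any other difference between the cell populations cannot be told apart.

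Interferons signal through receptors at the cell surface to the JAK kinases and the STAT transcription factors. Type I interferon assembles a complex that holds STAT2 and IRF9 and binds the interferon-stimulated response element, and type II interferon acts through gamma-activated sites. The induced genes sense viral nucleic acid, block viral replication or raise the response further, and B cells can respond to both kinds of interferon.

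The response element is shown first, since the complex that type I interferon assembles binds it. In the RefSeq promoter table of build GRCm38.p6, 23 of the 34 members had an entry, with 27 promoters in all. For 12 of the 19 members with 1 entry, the start of that entry was the annotated gene start. The 250 bases before each start were searched on either strand for the core of the response element, here GAAA, any 2 bases and GAAA again, with overlapping matches counted. It was found for 12 of the 23 members (52.2%), against 3.46% of the 27025 genes in the table, and the members were listed because interferon induces them, so no test was made. Below are the windows of the 9 members that hold the core and were measured, on the gene's own strand. Capitals mark the core, which reads TTTC, 2 bases and TTTC where it lies on the opposite strand.
Ifit1 (chr19:34640775-34640823, plus strand): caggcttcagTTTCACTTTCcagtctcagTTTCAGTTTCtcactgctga
Ifit3 (chr19:34583363-34583426, plus strand): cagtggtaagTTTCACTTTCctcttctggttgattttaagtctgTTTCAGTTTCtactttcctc
Oas1a (chr5:120907526-120907555, minus strand): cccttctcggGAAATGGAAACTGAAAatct
Oas3 (chr5:120777715-120777744, minus strand): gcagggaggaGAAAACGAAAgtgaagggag
Rsad2 (chr12:26456553-26456582, minus strand): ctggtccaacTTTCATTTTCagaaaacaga
Bst2 (chr8:71537577-71537612, minus strand): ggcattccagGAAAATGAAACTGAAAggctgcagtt
Trim30a (chr7:104465210-104465239, minus strand): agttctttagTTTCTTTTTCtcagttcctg
Gbp3 (chr3:142559989-142560024, plus strand): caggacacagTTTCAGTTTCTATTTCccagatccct
Irgm1 (chr11:48871425-48871460, minus strand): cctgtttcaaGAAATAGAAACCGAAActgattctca
Oas1a, Bst2, Gbp3 and Irgm1 hold overlapping cores, and Ifit1 and Ifit3 each hold 2 that are set apart. The gamma-activated site, TTCNNNGAA, was found in 4 of 27 member promoters (14.8%) and in 7.02% of all 32851 promoters. It reads the same on either strand and was counted once, and in Bst2 it overlaps the response element core.

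The labels were checked on Mbd4 itself, whose cluster read 8.74 and 8.77 (log2) on the control arrays and 6.47 and 6.49 on the Mbd4 KO arrays (limma adjusted p = 2e-04). All 7 B cell markers measured lay above the upper quartile of every array, while 0 of 6 T cell markers lay above the median on all arrays. Above the median on all arrays were also 3 of 8 macrophage, 1 of 6 NK cell, 2 of 6 fibroblast and 2 of 5 plasmacytoid dendritic cell markers, with Siglech, which defines the last type, below the median on every array. Of all these markers, Adgre1 and Nkg7 were called, both lower in Mbd4 KO cells (limma adjusted p = 0.0031 and 0.0333).

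No measured member of this set was called different in Mbd4 KO cells. Of the 30, 0 passed an adjusted p of 0.05 in limma's fit over all 21789 clusters, where 1.39% passed (302 clusters). The differences, Mbd4 KO minus control, ran from -0.38 for Ddx58 to 0.24 for Oas1b on the log2 scale. Their median was -0.01, against 0.02 over all tested clusters, with 16 members below zero and 14 above. Of the 15 members above the median of the array on all 4 arrays, 11 were below zero. Their median was -0.06, against 0.02 for all such clusters. Of the 15 below it on all 4, 5 were below zero, with a median of 0.05, against 0.03. No test was made of this split. At an unadjusted p under 0.05 there were 7 members (Ddx58, Gbp3, Parp9, Trim30a, Oasl2 and Mx1 lower, Oas1b higher), against 13.8% of all clusters. Of all 21789 clusters, 1401 were lower and 1612 higher at that threshold. With 1 array left out, 13 of the 30 differences turned sign for at least 1 choice of array and 17 kept theirs. The 95% interval of limma lay within 2-fold either way for all 30 members and within 1.5-fold for 29, Ifit2 being the exception.

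In 9 of the 30 members both Mbd4 KO arrays lay below both control arrays, and in 4 both lay above. Over all tested clusters the shares were 18.3% below and 26.7% above. The 9 lower were Ddx58, Dhx58, Zbp1, Oasl2, Trim30a, Ifi35, Mx1, Gbp3 and Parp9, and the 4 higher were Oas1b, Oas2, Ifi27l2a and Parp12. The remaining 17 overlapped. The median of the 30 members was 7.00 and 7.13 on the control arrays and 7.09 and 7.10 on the Mbd4 KO arrays, so that the KO arrays lay between the controls. Of the members, 15 were above the median of the array on all 4 arrays and 15 below it on all 4. Ifit3, Rtp4 and Mx2 lay under the lower quartile on every array, and Trim30a and Irgm1 above the upper quartile. Clusters differ in how their probes respond, so this position does not rank transcripts.

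**Figure D1:**
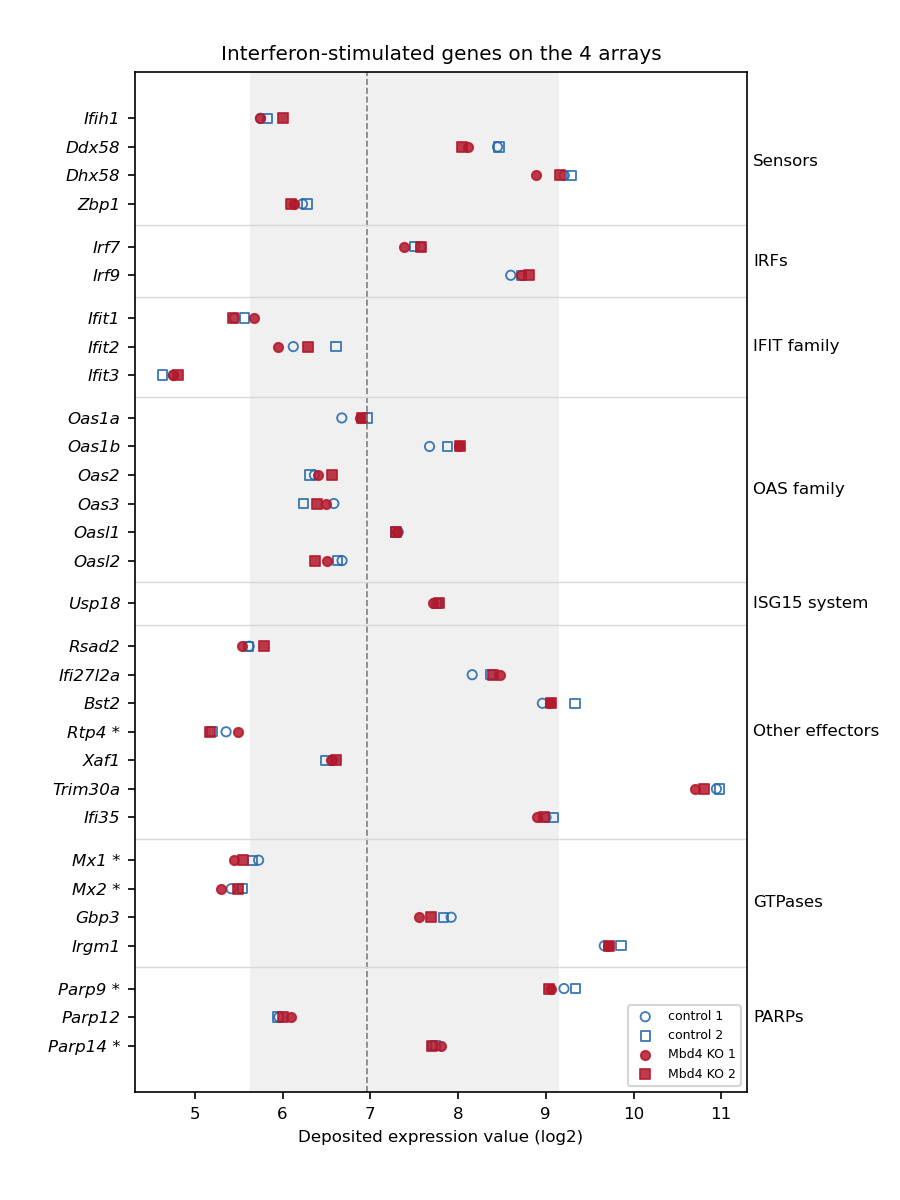
Deposited expression value (log2, x axis) of the 30 measured interferon-stimulated genes on each control array (open blue) and Mbd4 KO array (filled red), with circles for replicate 1 and squares for replicate 2, grouped by role; the grey band spans the mean lower to upper quartile of the arrays, the dashed line is their mean median, and an asterisk marks chromosome 16. In Ddx58 the KO arrays, at 8.11 and 8.04, sit apart from the controls, at 8.45 and 8.47, whereas for Usp18 the 4 points coincide.

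Among the nucleic acid sensors, Ddx58, which encodes the RNA helicase RIG-I, had the largest difference of any member. It read 8.45 and 8.47 on the control arrays and 8.11 and 8.04 on the Mbd4 KO arrays. The groups did not overlap, and the gap between them was several times the distance within either. The difference was -0.38 ± 0.068 (log2, SE; 95% interval -0.55 to -0.22; limma adjusted p = 0.0738), 1.30-fold, and lay at the 1.86th percentile of all tested clusters. Where limma's variance prior followed intensity (an intensity trend), Ddx58 was called with an adjusted p of 0.0134, and 5.14% of all clusters passed. It was also called without the dimmest 30% of clusters (0.0274), where 4.2% passed, and its adjusted p ranged from 0.0656 to 0.295 over the other 9 alternatives.

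The 250 bases before the start of Ddx58 (chr4:40239826-40240075, minus strand, GRCm38.p6) are printed because this member had the largest difference and because CpG sites, in capitals here, are what Mbd4 binds when methylated. The window holds 12 CpG sites and no match to the core searched for. It does hold the stretch gaaaCGaaa, which repeats GAAA at a closer spacing that the search did not count. The median promoter held 4 CpG sites among the 27 member promoters and 6 among all in the table. Of the 23 members with an entry, Parp12 alone, with 41, had more than Ddx58, and Ifih1 had 11. Methylation was not measured on these arrays.
Ddx58: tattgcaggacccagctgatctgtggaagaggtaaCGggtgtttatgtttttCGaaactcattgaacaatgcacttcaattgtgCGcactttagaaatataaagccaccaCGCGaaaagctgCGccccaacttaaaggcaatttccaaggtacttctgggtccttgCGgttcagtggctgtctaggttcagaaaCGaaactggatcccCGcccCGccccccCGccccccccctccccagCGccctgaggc

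The other sensors were Dhx58, which encodes LGP2, a relative of RIG-I, Ifih1, which encodes MDA5, a sensor of long double-stranded RNA, and Zbp1, which encodes a sensor of Z-form nucleic acid. Dhx58 read 9.21 and 9.29 on the control arrays and 8.89 and 9.16 on the KO arrays. Its KO arrays lay farther from each other than the second KO array lay from the controls, and the difference, -0.23, did not pass (limma adjusted p = 0.416). Zbp1 read 6.23 and 6.28 on the control arrays and 6.13 and 6.10 on the KO arrays, a difference of -0.14 (adjusted p = 0.445). Ifih1 differed by 0.08, with overlapping groups. With 1 array left out the difference of Dhx58 ranged from -0.36 to -0.09. KO arrays lay below both controls in 3 of the 4 sensors, against 18.3% of all clusters, and with 4 genes nothing is read from that share. The median of the 4 was -0.18.

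The interferon regulatory factors in the set are Irf9, the DNA-binding partner of STAT2, and Irf7, which drives transcription of type I interferon genes. Irf9 read 8.60 and 8.72 on the control arrays and 8.72 and 8.81 on the KO arrays. The lower KO array coincided with the higher control, and the difference was 0.10 (95% interval -0.09 to 0.30; limma adjusted p = 0.628). Irf7 read 7.57 and 7.50 on the control arrays and 7.39 and 7.57 on the KO arrays. The first control and the second KO array nearly coincided, the groups overlapped, and the difference was -0.06.

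The IFIT proteins bind foreign RNA and block its translation. Ifit2 read 6.12 and 6.61 on the control arrays and 5.95 and 6.29 on the KO arrays. Its groups overlapped, its controls lay farther apart than the group means, and its difference of -0.25 had an interval from -0.70 to 0.20, the widest of any member. It was -0.49 without control array 1 and -0.003 without control array 2. Ifit1 differed by 0.05 and Ifit3 by 0.09, with overlapping groups and all 3 clusters below the array median.

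Some enzymes of the OAS family synthesise the oligoadenylate that activates RNase L, and Oasl1 and Oasl2 are OAS-like relatives. The activity of each product was not measured on these arrays. Oas1b read 7.67 and 7.88 on the control arrays and 8.01 and 8.03 on the KO arrays. This was the largest positive difference among the members, 0.24 ± 0.088 (log2, SE; 95% interval 0.03 to 0.46; limma adjusted p = 0.306), and both KO arrays lay above both controls. Without control array 1 it was 0.14, and without control array 2 it was 0.34. Oas2 read 6.36 and 6.31 on the control arrays and 6.40 and 6.56 on the KO arrays, a difference of 0.15 (adjusted p = 0.499) that was 0.07 without Mbd4 KO array 2. Oasl2 went the other way: it read 6.68 and 6.62 on the control arrays and 6.50 and 6.36 on the KO arrays, and differed by -0.22 (adjusted p = 0.304). Oas1a, Oas3 and Oasl1 differed by 0.07, 0.03 and -0.0014, with overlapping groups. The 6 lie on chromosome 5 and are near relatives in sequence, Oas1a and Oas1b most of all, so probes of a cluster may read a related gene.

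Of the ISG15 system, a ubiquitin-like modifier and its enzymes, only Usp18, which encodes the protease that removes ISG15 and also damps the type I receptor, was measured. It read 7.78 and 7.76 on the control arrays and 7.71 and 7.78 on the KO arrays. All 4 values lay within the spread of the KO arrays, and the interval of the difference was -0.19 to 0.14.

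The other effectors include Trim30a, a TRIM family gene, Ifi27l2a, a relative of human IFI27, and Bst2, which encodes tetherin, a protein that holds budding virus at the membrane. Trim30a read 10.95 and 10.98 on the control arrays and 10.70 and 10.80 on the KO arrays. Its groups did not overlap, and the difference was -0.21 ± 0.072 (log2, SE; limma adjusted p = 0.284). It was called (0.0415) where limma's prior followed intensity, as were 5.14% of all clusters. Ifi27l2a read 8.16 and 8.37 on the control arrays and 8.47 and 8.40 on the KO arrays, a difference of 0.17 (adjusted p = 0.478), with the second control close to the KO arrays. It was 0.07 without control array 1 and 0.28 without control array 2. Bst2 read 8.96 and 9.33 on the control arrays and 9.05 and 9.06 on the KO arrays, so that its KO values lay between its controls. Rsad2, which encodes viperin, the apoptosis-related gene Xaf1 and Ifi35 differed by 0.05, 0.05 and -0.10.

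Of the 4 interferon-inducible GTPases measured, 0 passed. Their differences had a median of -0.14 and were negative with all 4 arrays in the fit, but those of Irgm1 and Mx2 turned positive with 1 array left out. Gbp3, a guanylate-binding protein gene, read 7.92 and 7.83 on the control arrays and 7.56 and 7.69 on the KO arrays. Its groups did not overlap, and the difference was -0.25 ± 0.079 (log2, SE; 95% interval -0.45 to -0.06; limma adjusted p = 0.243). Irgm1, an immunity-related GTPase gene, differed by -0.05 with overlapping groups (0.05 without control array 2), and Mx1 and Mx2, the dynamin-like antiviral GTPase genes, are given with chromosome 16. Gbp3 had the second-largest difference among the members. The first of its 2 promoter entries, unlike the promoter of Ddx58, holds matches to the core searched for, marked in capitals. The second entry holds no match. The 250 bases before the first listed start of Gbp3 (chr3:142559794-142560043, plus strand, GRCm38.p6) hold 0 CpG sites.
Gbp3: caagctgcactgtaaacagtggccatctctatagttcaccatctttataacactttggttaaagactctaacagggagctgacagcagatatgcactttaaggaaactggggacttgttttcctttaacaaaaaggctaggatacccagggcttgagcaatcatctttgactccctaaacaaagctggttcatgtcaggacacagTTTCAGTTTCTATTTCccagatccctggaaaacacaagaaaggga
Over the 19 measured members with a promoter entry, the 9 with the searched core differed by -0.25 to 0.09, with a median of 0.03. The 10 without a match, Ddx58 among them, differed by -0.38 to 0.10, with a median of -0.03. Those below zero were 4 of 9 and 6 of 10. The ranges overlap, and no test was made of members chosen in this way.

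**Figure D2:**
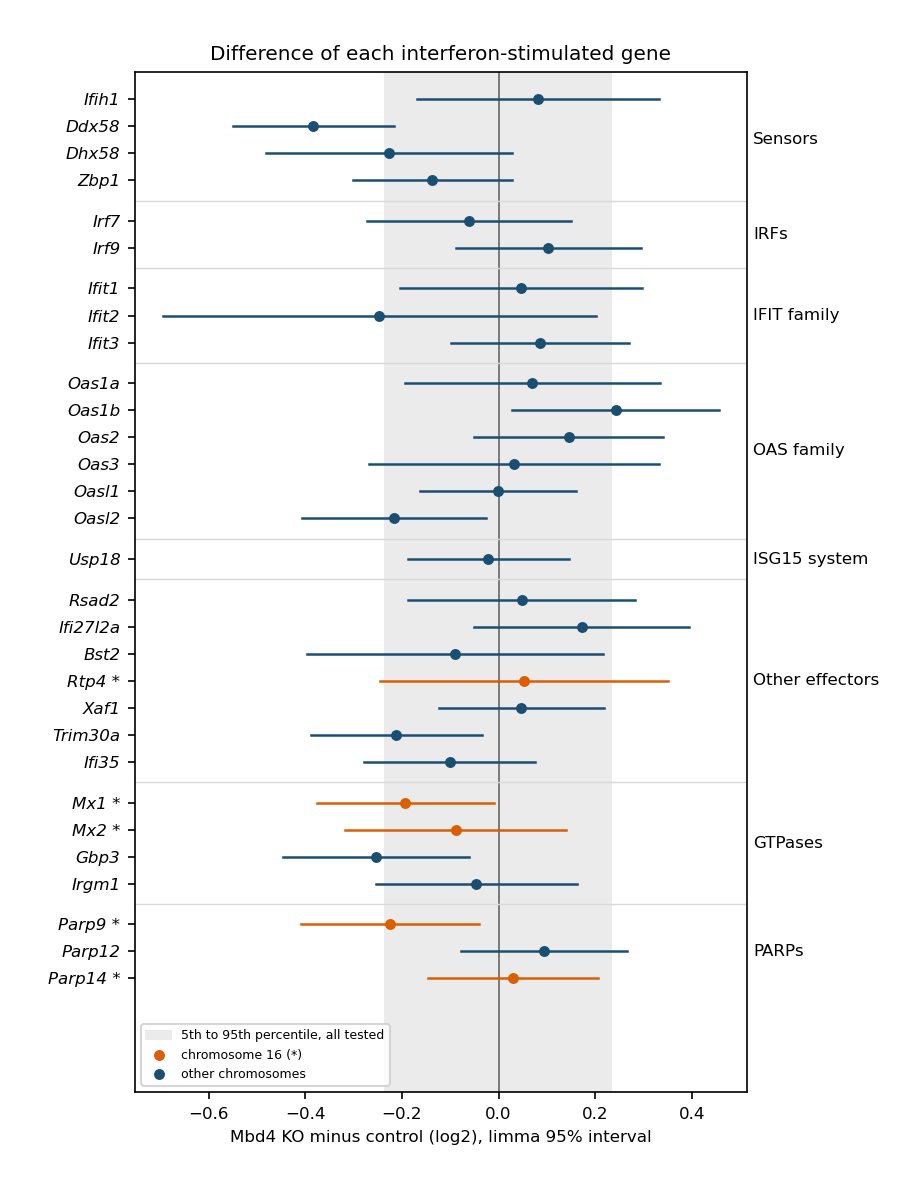
Difference of each measured member (Mbd4 KO minus control, log2, x axis) with limma's 95% interval, unadjusted for the number of genes, grouped by role; orange marks chromosome 16 and the grey band spans the 5th to 95th percentile of all tested clusters. The intervals of Ddx58, Gbp3, Parp9, Trim30a, Oasl2 and Mx1 lie below zero and that of Oas1b above it, and no member passed after adjustment.

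Mx1, Mx2, Parp9, Parp14 and Rtp4 lie on chromosome 16, where clusters as a whole were lower in Mbd4 KO cells. The median difference of the 703 tested clusters of this chromosome was -0.14, against 0.02 for the clusters of all others. The shift was found in the brighter clusters: of the 355 that lay above the array median on all 4 arrays, 329 were below zero, with a median of -0.28, whereas the 322 below the array median had a median of 0.01. Parp9 and Parp14 belong to the former and Mx1, Mx2 and Rtp4 to the latter. Both KO arrays lay below both controls in 307 of the 355 brighter clusters (86.5%) and in 53 of the 322 dimmer ones (16.5%).

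Parp9 and Parp14 encode members of the ADP-ribosyltransferase family, and PARP9 works with the ubiquitin ligase DTX3L. Parp9 read 9.21 and 9.34 on the control arrays and 9.06 and 9.04 on the KO arrays. The groups did not overlap, and its difference of -0.22 ± 0.076 (log2, SE; limma adjusted p = 0.279) compares with the chromosome's median of -0.28 for clusters above the array median. Parp14 read 7.70 and 7.74 on the control arrays and 7.80 and 7.71 on the KO arrays. Its difference of 0.03 (95% interval -0.15 to 0.21) put it with the 26 of 355 such clusters above zero. Dtx3l, which lies between them in the annotation, differed by -0.08. The median over the 10 measured genes on either side was -0.06 at Parp9 and -0.12 at Parp14. Parp12, the third PARP gene of the set, lies on chromosome 6, read 5.96 and 5.95 on the control arrays and 6.09 and 6.00 on the KO arrays, and differed by 0.09.

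Mx1 read 5.73 and 5.65 on the control arrays and 5.44 and 5.55 on the KO arrays. Its groups did not overlap, and the difference was -0.19 (95% interval -0.38 to -0.01; limma adjusted p = 0.336). Mx2 read 5.41 and 5.54 on the control arrays and 5.29 and 5.49 on the KO arrays, a difference of -0.09 with overlapping groups. Rtp4, a receptor transporter protein gene, read 5.35 and 5.20 on the control arrays and 5.49 and 5.17 on the KO arrays, so that the controls lay inside the range of the KO arrays, and it differed by 0.05. Without control array 2 or Mbd4 KO array 1 the sign of Rtp4 turned (-0.03 and -0.11), and without Mbd4 KO array 1 so did those of Mx2 (0.01) and Parp14 (-0.02). The median of the 5 members of chromosome 16 was -0.09 and that of the other 25 was -0.0014. It ranged from -0.19 to -0.03 for the 5 with any 1 array left out. How far the values of Mx1, Mx2 and Parp9 belong to the shift of the chromosome was not tested.

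**Figure D3:**
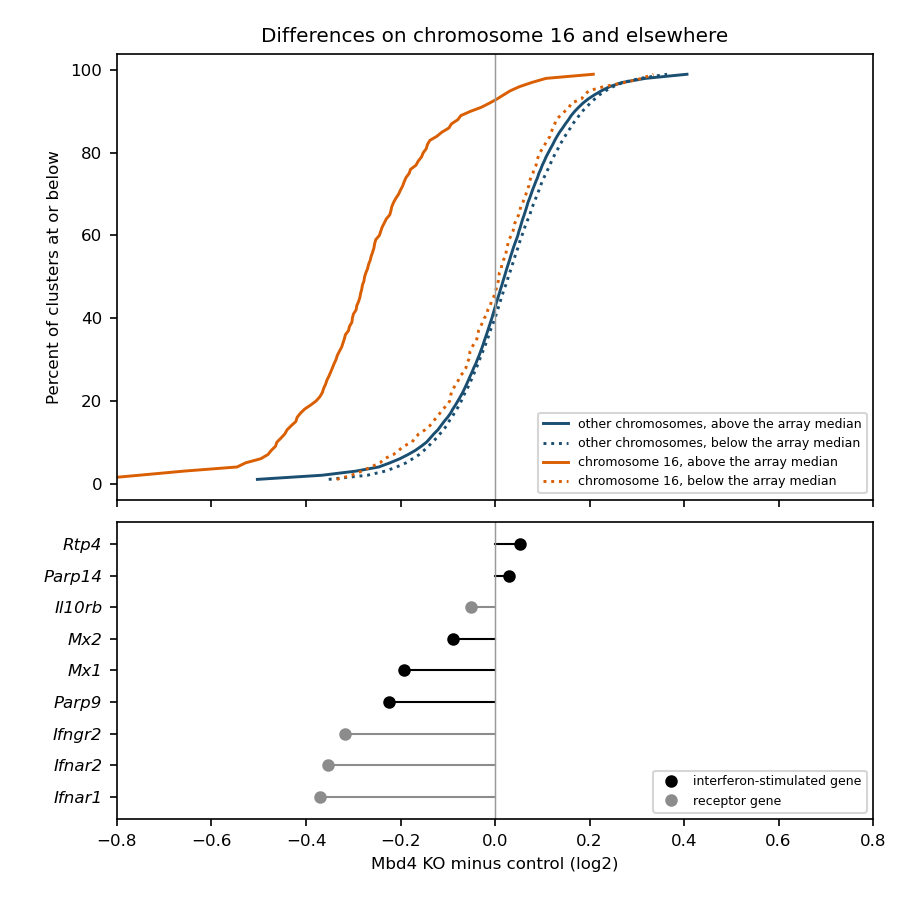
Upper panel, percent of tested clusters at or below each difference (Mbd4 KO minus control, log2), drawn from the 1st to the 99th percentile and cut at the left edge, for chromosome 16 (orange) and the other chromosomes (blue), split into clusters above (solid) and below (dotted) the array median on all 4 arrays; lower panel, the interferon-stimulated genes (black) and interferon receptor genes (grey) of chromosome 16. The solid orange curve, with a median of -0.28, stands to the left of the others, and Ifnar1, Ifnar2 and Ifngr2 lie near or below that median while Parp14 and Rtp4 lie above zero.

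The rest of the pathway was followed in 7 lists of 129 genes, of which 107 were measured by 132 clusters. The receptor list holds the type I receptor genes Ifnar1 and Ifnar2, the type II receptor genes Ifngr1 and Ifngr2, and Ifnlr1 and Il10rb of the type III receptor, and 0 of 6 passed. Ifnar1 read 10.24 and 10.20 on the control arrays and 9.85 and 9.85 on the KO arrays, a difference of -0.37 ± 0.066 (log2, SE; limma adjusted p = 0.0744). Ifnar2 differed by -0.35 (adjusted p = 0.0835) and Ifngr2 by -0.32 (adjusted p = 0.124), and for all 3 the groups did not overlap. These 3 and Il10rb (-0.05) lie on chromosome 16. There, both KO arrays lay below both controls in 307 of the 355 clusters above the array median (86.5%). Over all tested clusters that share was 18.3%. The measured genes around the 3 had a median of -0.23, and those around Il10rb one of -0.26. Ifngr1, on chromosome 10, differed by 0.02. Ifnlr1, on chromosome 4, read 7.23 and 7.10 on the control arrays and 7.62 and 7.93 on the KO arrays, a difference of 0.61 ± 0.12 (log2, SE; adjusted p = 0.086). Ifnar1 and Ifnlr1 were called without the dimmest 30% of clusters (limma adjusted p = 0.0275 and 0.0372) and with the intensity trend (0.00232 and 0.00755). Of all clusters tested, 4.2% and 5.14% passed in these fits.

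Of 21 ligand genes, 16 were measured and 0 passed. Their median was 0.0006 and 12 lay below the array median on all 4 arrays. The largest differences were those of Ifne, the epithelial interferon gene (-0.38, limma adjusted p = 0.27), and Ifna14 (-0.28). Ifna14 read 7.31 and 6.69 on the control arrays and 6.63 and 6.81 on the KO arrays, and without control array 1 its difference was 0.03. Between receptor and nucleus, 0 of 5 measured JAK and STAT genes passed. Stat3 differed by -0.32 (limma adjusted p = 0.109) and Jak2 by 0.32 (adjusted p = 0.208), each with groups that did not overlap. Each was called with the intensity trend (0.00427 and 0.0176), where 5.14% of all clusters passed. Stat3 was also called without the dimmest 30% of clusters (0.0453), while Stat2, the partner of IRF9, differed by -0.0001. The negative regulators had 0 of 10 clusters called (8 genes), with Pias1 at -0.20 (called with the intensity trend, adjusted p = 0.0476) and Ptpn6 at -0.17. Among the sensing receptors and adaptors 0 of 15 passed, and the largest differences were those of Tlr7, the endosomal receptor for single-stranded RNA (-0.26, adjusted p = 0.184; 0.0084 with the intensity trend), and Ikbke (0.21). Of the other IRF genes 0 of 6 passed (7 clusters), with Irf3, which acts downstream of RIG-I, at -0.37 (adjusted p = 0.142; 0.0197 with the intensity trend) and Irf2 at -0.18.

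Calls were found among 51 further measured interferon-stimulated genes that are not members. Of their 73 clusters, 1 rose and 7 fell, against the 1.39% called over all tested clusters, and 4 of the 8 belong to 1 gene. Lgals9, the galectin-9 gene, read 9.96 and 10.03 on the control arrays and 9.13 and 9.20 on the KO arrays, and fell by 0.83 (log2; limma adjusted p = 0.0078). Gbp9, a relative of Gbp3, fell by 0.56 (adjusted p = 0.0312), from 7.66 and 7.69 to 7.07 and 7.17. Ifitm1, a gene of the membrane proteins that block viral entry, fell by 0.53 in 1 cluster (adjusted p = 0.0314) and differed by -0.13 in the other. Nlrc5, the transactivator of MHC class I genes, fell in 4 of its 19 clusters (differences of -0.73 to -0.51), and all 19 were below zero. The cluster that changed most read 9.60 and 9.62 on the control arrays and 8.78 and 8.97 on the KO arrays (limma adjusted p = 0.0213). Rnf213, a large ubiquitin ligase gene, rose by 0.49 in 1 cluster (adjusted p = 0.0415) and differed by 0.49 in the other (adjusted p = 0.0677). Nlrc5 gives 19 of the 73 clusters, so 1 cluster per gene was also taken. The median of the list was then -0.08 over 51 genes, against 0.02 over all tested clusters, with 32 below zero, 1 called higher and 3 lower. With the replicate number as a block, Lgals9 and the Nlrc5 cluster that changed most were called and the other 6 were not. None of the 8 clusters kept its call in every fit with 1 array left out: Lgals9 kept it without control array 1, and the count was 0 without any other array.

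**Figure D4:**
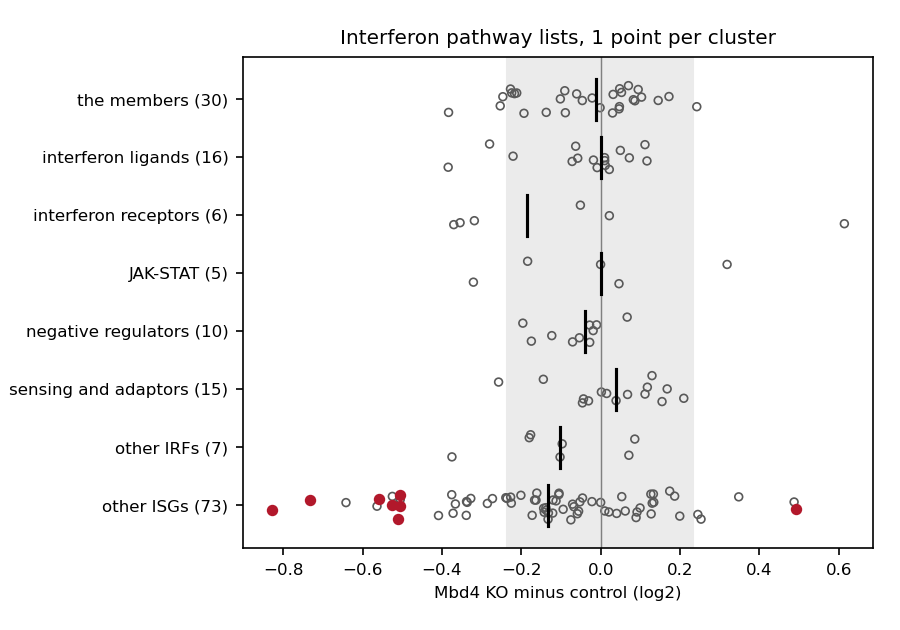
Difference (Mbd4 KO minus control, log2, x axis) of every measured cluster of the interferon-stimulated genes described here (the members) and of 7 further lists, with the number of clusters in brackets and ISG for interferon-stimulated gene; filled red points passed limma's adjusted p of 0.05, bars are medians and the grey band spans the 5th to 95th percentile of all tested clusters. The 8 red points all lie in the last list, and the 30 members spread from -0.38 to 0.24 around a median of -0.01.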

How the data were processed

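Expression was measured on 4 arrays, 2 control and 2 Mbd4 KO, and the titles give the group. The authors deposited log2 values, 1 for each transcript cluster, made with RMA per the submitters' processing notes. Its version and settings and the genome build are not stated there. RMA normalizes the arrays to each other and summarises probes. No raw intensity was used, so signal over background is unknown, and differences of dim clusters may be understated.

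Clusters paired with exactly 1 gene symbol (21789) were fitted in R 4.3.3 by limma 3.58.1 (lmFit, eBayes). Its two-sided p-values were adjusted by Benjamini-Hochberg across these clusters, with a threshold of 0.05 and no filter. SE values are moderated, with 2 residual degrees of freedom. The procedure was tested on simulated data. The planted differences exceeded that of every member, so how often differences of the members' size are found was not tested. An exact permutation test of 2 against 2 arrays cannot give a p below 0.333, and their number limits the precision. The members and lists were chosen with earlier results of these data known. All member clusters were counted, and array values given for the 3 largest differences either way, each role's largest and chromosome 16, with a few others chosen after their values were seen. For each list the 2 largest differences and all calls are named. Gene order came from RefSeq (GRCm38.p6). Alternatives were a replicate block, each array left out, other priors, a filter, 2 normalizations, all clusters, and 1 cluster per gene. Figures were drawn with matplotlib 3.10.9.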

Additional observations from a re-analysis of the deposited data

How the results depend on the processing

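With 2 arrays a group, no member passed with the replicate number as a block, with any 1 array left out, with a robust prior, with quantile or cyclic loess normalization, or with all clusters of the table. With an intensity trend 2 members were called (Ddx58 and Trim30a), where 5.14% of all clusters passed. Without the dimmest 30% of clusters 1 was called (Ddx58 among 22 tested), where 4.2% of those tested passed. The count of 0 depends on the variance prior and on the filter. Over all tested clusters the count went from 302 to 159 with the replicate block, 1121 with the trend, 640 without the dimmest 30%, 22 over all clusters of the table and 65 to 75 with 1 array left out. The numbers of the labels are not stated to pair the samples, and the differences between array 1 and array 2 of each group correlated weakly across clusters, which are not independent (r = 0.083). Over the 30 members r was 0.275. In the pathway lists, where 8 clusters were called, the counts were 3 with the replicate block (2 of them among the 8), 30 with the trend and 19 without the dimmest 30% (all 8 among them in both), 0 over all clusters of the table and 0 to 1 with 1 array left out. These lists hold 132 measured clusters. The median of members on chromosome 16 ranged from -0.186 to -0.0268 with 1 array left out. With 1 array left out the sign turned for 13 of 30 members, namely Rtp4 (-0.11 to 0.21), Mx2 (-0.19 to 0.01), Parp14 (-0.02 to 0.08), Usp18 (-0.06 to 0.01), Ifih1 (-0.05 to 0.21), Irf7 (-0.15 to 0.03), Ifit1 (-0.08 to 0.17), Oas1a (-0.08 to 0.22), Oas3 (-0.14 to 0.21), Oasl1 (-0.018 to 0.016), Rsad2 (-0.08 to 0.17), Bst2 (-0.28 to 0.09) and Irgm1 (-0.14 to 0.05), and also for Ifna14 (-0.59 to 0.03). The cause was not tested. The median of all members stayed between -0.0533 and -0.0108 in every setting run, and with 1 cluster per gene it was the same value.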
